A study of Mus musculus with 4 samples.

Results

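The genes examined were 10 in all, of which 9 encode secreted regulators around the Wnt signal and 1 a nuclear effector of the same pathway. They were chosen by name, as the secreted Wnt antagonists Frzb, Sfrp1, Sfrp2, Dkk3 and Wif1, the secreted Ccn proteins Ccn1, Ccn2, Ccn3 and Ccn4, and the transcription factor Tcf7l2. They stand among 12393 genes on the array and are represented by 21 probe sets. A probe set is a group of short oligonucleotides read together as 1 value, and some probe sets can read more than 1 transcript. All 21 were annotated to a member gene alone.
The study asked whether repeated electroconvulsive stimulation (ECS), a seizure treatment, and chronic treatment with the selective serotonin reuptake inhibitor fluoxetine changed the expression profile of the adult mouse dentate gyrus (DG) alike. DG was dissected from male C57Bl/6 mice, which were bought at 8 weeks of age. The ECS pool came from mice shocked 11 times under isoflurane, at 4 sessions a week over 3 weeks, and the sham pool from mice put through the same handling and anesthesia without current. The fluoxetine pool came from mice that drank fluoxetine at 22 mg/kg/day for 4 weeks (28 days) in water with 0.2% saccharin, and the vehicle pool from mice given water for 28 days. Tissue of the ECS and sham pools was taken 6 h after the last session according to the labels and 24 h after it according to the methods. The fluoxetine pool held only mice whose mossy fiber synapses showed small frequency facilitation (n = 3), so it was not a random sample of treated mice. The RNA of each group was pooled and read on 1 Affymetrix mouse genome 430A 2.0 array, so there were 4 arrays and no replicates. No SD or p-value that covers the spread between mice or pools can therefore be given for any difference. The paper states that the Affymetrix software computed a change call and a change p-value per transcript, which were not used here.
Wnt proteins are secreted ligands that bind Frizzled receptors and Lrp5 or Lrp6 co-receptors, after which β-catenin is stabilized and acts in the nucleus with Tcf and Lef factors. Secreted antagonists set how much Wnt reaches the receptor: the frizzled-related proteins and Wif1 bind the ligand itself, whereas Dickkopf proteins mostly bind the co-receptor. In the DG, Wnt proteins promote the birth of granule cells in the adult, and Frzb (also known as sFRP3) is made by mouse granule cells and restrains that process. Ccn proteins are matricellular proteins, which bind integrins and growth factors in the matrix around cells. Their older names are Cyr61 (Ccn1), Ctgf (Ccn2), Nov (Ccn3) and Wisp1 (Ccn4, for Wnt1-inducible signaling pathway protein). Ccn1 and Ccn2 are known targets of the YAP and TEAD factors.
Values were signal intensities, and the log2 ratio of the ECS array to the sham array and of the fluoxetine array to the vehicle array was taken. A probe set was measured when its mean signal over the 4 arrays was at least 50, and the size for a call, higher or lower, was a 1.5-fold difference. Signals of different probe sets cannot be compared as amounts of RNA. The 4 arrays differed in overall level, with a trimmed mean signal of 249.9 for ECS, 261 for sham, 414 for fluoxetine and 374 for vehicle. The sham and vehicle arrays were the only pair of untreated pools, and for each probe set the control spread is the scaled median absolute deviation of their centred log2 ratio over the 500 probe sets nearest in signal. It was 0.35 over probe sets with signals of 50 to 100 and 0.19 over those of 200 to 500. Of 10 granule cell markers, C1ql2 and Pdzd2 were not on the array and the other 8 all passed the signal filter. All 10 interneuron markers and all 10 astrocyte markers passed it as well, so passing it does not check the DG label.

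Of the 21 member probe sets, 9 passed the signal filter, from the 6 genes Frzb, Dkk3, Ccn2, Ccn3, Ccn4 and Tcf7l2. The other 12 did not, and the genes Sfrp1, Sfrp2, Wif1 and Ccn1 were represented only by those. Of the 84 member signals, 56 were below 50, so much of this gene set lay in the range where the array is least precise. With ECS, 2 of the 9 measured probe sets were higher and 2 lower, against 3.81% higher and 6.52% lower among all 13422 measured probe sets. With fluoxetine, 4 were higher and 2 lower, against 8.65% higher and 3.11% lower among all. The 2 probe sets of Frzb were lower with both treatments, as were 1.66% of all probe sets. Frzb probe set 1448424_at passed the filter only through the control pools, so nothing is read from the count of lower members. The 2 probe sets of Ccn4 were higher with both, as were 2.61% of all, but they and Ccn2 passed the filter only through treated pools in which they were high, so nothing is read from the count of higher members against all probe sets. Probe sets of one gene read the same RNA pool and are not independent. The balance of the calls over all probe sets depends on the level of the arrays: upward calls made up 36.9% of the ECS calls as deposited, but 56.1% after each array was centred on its median, and 73.6% of the fluoxetine calls as deposited, but 53.5% after it. No call of a member probe set changed with that centring.

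**Figure D1:**
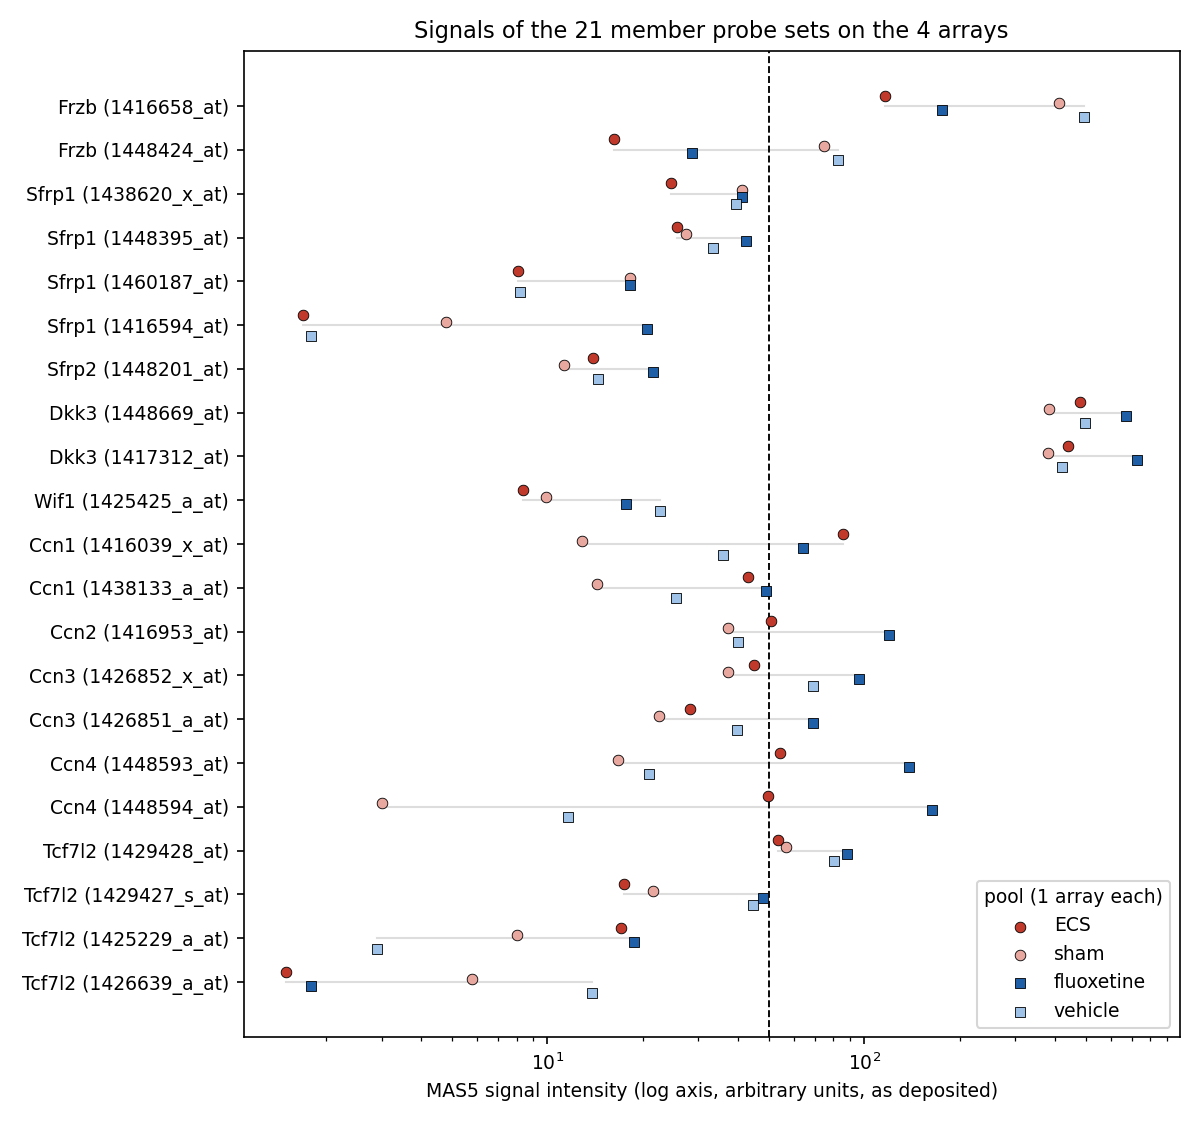
Signal intensity (log axis, arbitrary units) of each of the 21 member probe sets in the ECS, sham, fluoxetine and vehicle pools, with 1 array per pool. The dashed line marks a signal of 50. Frzb lies to the left in both treated pools and Ccn4 to the right, whereas 56 of the 84 points lie below 50.

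Frzb showed the decrease. It encodes a secreted decoy that holds Wnt proteins away from Frizzled receptors. The brighter probe set, 1416658_at, had a signal of 116.0 in the ECS pool, against 410.9 in the sham pool, and 176.2 in the fluoxetine pool, against 494.2 in the vehicle pool. Both treated pools were thus below both control pools, and all 4 signals stood above 50. The signal was 3.54-fold lower with ECS and 2.80-fold lower with fluoxetine, which corresponds to log2 ratios of -1.82 and -1.49. The control spread at this signal was 0.19, and the sham and vehicle pools themselves differed by 0.24 after centring. Among the 13422 measured probe sets, 16 had a log2 ratio as low as this or lower with ECS, itself included, and 40 with fluoxetine. After median-centring the log2 ratios were -1.72 and -1.61.
The other Frzb probe set, 1448424_at, gave the same direction near the lower limit of measurement. Its signal was 16.2 in the ECS pool, against 74.5 in the sham pool, and 28.6 in the fluoxetine pool, against 82.6 in the vehicle pool. Both control signals were above 50 and both treated signals below it. The log2 ratios were -2.20 for ECS and -1.53 for fluoxetine, beside a control spread of 0.41. With a mean of 50.5 it was the dimmest member to pass the filter. With all signals below 50 taken as 50, its log2 ratios were -0.58 with ECS, short of the 1.5-fold size, and -0.72 with fluoxetine, whereas those of the brighter probe set were unaltered. Among the 2374 probe sets with a mean signal of 50 to 100, 2.19% were lower with both treatments. Nothing is read from that share, because 1448424_at passed the filter only through its high control pools. The paper lists this probe set among the genes most lowered by ECS, of those it found significantly changed by both treatments. It also lists Frzb as lower in the hippocampus of mutant mice with immature-like granule cells.
Several granule cell markers were also lower in the treated pools, among them Calb1, Tdo2 and Dsp, which the paper reports as reduced after ECS. Of the 8 measured, 5 were lower with both treatments, namely Calb1, Dsp, Tdo2, Lct and Rasal1, against 1.66% of all measured probe sets. After centring 4 were lower with ECS and 5 with fluoxetine. The summed signal of the 8 markers was 7830 in the ECS pool, against 12526 in the sham pool, and 10156 in the fluoxetine pool, against 18399 in the vehicle pool. Prox1, the factor that fixes granule cell identity, had log2 ratios of -0.19 and 0.22. C1ql3 had -0.21 and -0.36 and Npnt had -0.29 and 0.54, also without a call. In tissue RNA of this kind, fewer cells of a type cannot be told apart from less RNA per cell, and the part of the marker decrease in the Frzb values was not tested. From staining, the paper reports that NeuN in the DG was unaffected by repeated ECS while calbindin was reduced.
The genes with the pattern nearest to that of Frzb were sought among 5234 genes with a mean signal of at least 200, by the distance over 3 log2 ratios (ECS over sham, fluoxetine over vehicle and centred sham over vehicle). These were Hlf at a distance of 0.31, Csgalnact1 at 0.34 and Pnck at 0.40. Hlf, a circadian-related transcription factor of the PAR bZIP family, had log2 ratios of -1.65 (ECS) and -1.23 (fluoxetine). Csgalnact1, an enzyme that starts chondroitin sulfate chains, had -1.60 and -1.23, and the calmodulin-dependent kinase Pnck had -1.54 and -1.71.

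**Figure D2:**
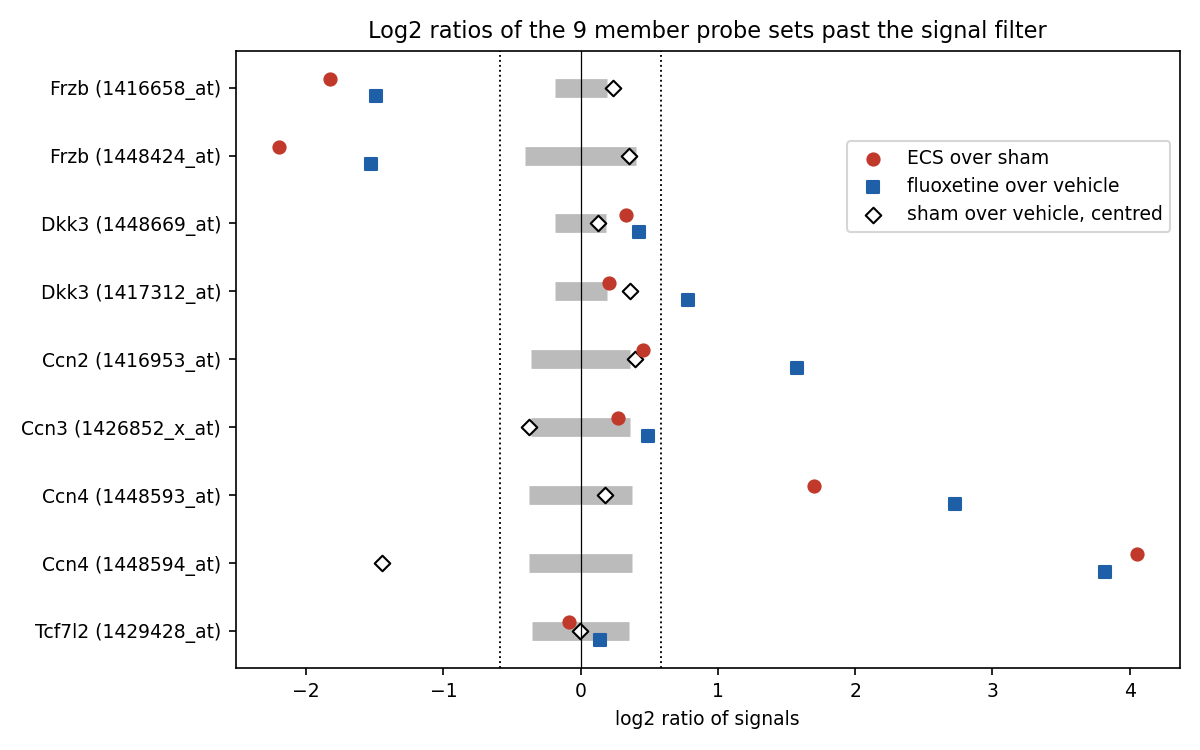
Log2 ratios of the 9 measured member probe sets for ECS over sham (circles), fluoxetine over vehicle (squares) and centred sham over vehicle (open diamonds), with 1 array per pool. Grey bars span the control spread on either side of 0 and dotted lines mark 1.5-fold. Both Frzb probe sets lie left of the lower dotted line for both treatments and both Ccn4 probe sets right of the upper one, while the sham and vehicle pools differed by -1.45 for Ccn4 probe set 1448594_at.

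The sequences before the transcription starts of Frzb, the gene that fell, and of Ccn1, the only Ccn gene with a promoter in the RefSeq table used, are shown for the motifs that mark the pathways above. Each run holds the 250 bases upstream of the start in build GRCm38.p6, in the direction of transcription, from chr2:80447397-80447646 on the minus strand for Frzb and chr3:145649986-145650235 on the minus strand for Ccn1. Capitals mark motif matches.
Frzb: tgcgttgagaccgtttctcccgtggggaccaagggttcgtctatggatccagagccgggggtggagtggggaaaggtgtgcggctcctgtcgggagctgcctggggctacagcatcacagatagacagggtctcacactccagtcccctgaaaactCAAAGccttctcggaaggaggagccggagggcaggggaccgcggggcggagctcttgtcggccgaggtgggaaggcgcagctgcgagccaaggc
Ccn1: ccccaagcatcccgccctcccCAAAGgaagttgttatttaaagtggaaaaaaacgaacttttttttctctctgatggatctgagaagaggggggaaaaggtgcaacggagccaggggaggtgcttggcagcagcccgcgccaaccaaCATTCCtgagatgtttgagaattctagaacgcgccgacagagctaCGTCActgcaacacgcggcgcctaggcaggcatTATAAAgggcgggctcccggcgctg
Motifs were sought on both strands, and the matches in these windows do not overlap. In the Frzb window the capitals mark 1 match to the Tcf/Lef core, spelled CTTTG and found here as its reverse complement at 94 to 90 bases before the start. In the Ccn1 window the first capitals from the left are the same core, at 229 to 225 bases before the start. The next are the reverse complement of the TEAD motif GGAATG, at 103 to 98. Then follow the reverse complement of TGACG, which is part of the cAMP response element, at 58 to 54, and the TATA box, searched as TATAAA, at 25 to 20. Of 32851 promoter windows of the same length, 48.6% held the Tcf/Lef core, 12.6% the TEAD motif, 17.8% the part of the cAMP response element and 12.4% the TATA box. The AP-1 motif TGANTCA was in 6.75% of all windows and in no member window. Windows were given for Frzb, Sfrp2, Ccn1, Wif1 and, from different starts, Tcf7l2, so 5 of the 10 genes matched. The Tcf/Lef core, which is short and common, was in 5 of the 6 member windows. The Frzb window had a GC content of 64.4% and the Ccn1 window 54.8%, beside a median of 52.4% over all windows. These matches describe letters only.

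Among the other antagonists, only Dkk3 was measured. It encodes a Dickkopf protein that, unlike Dkk1, is not an established blocker of the Lrp5 and Lrp6 co-receptors. Probe set 1448669_at had a signal of 481.3 in the ECS pool, against 383.7 in the sham pool, and 670.7 in the fluoxetine pool, against 498.2 in the vehicle pool. Probe set 1417312_at had 440.2 in the ECS pool, against 381.0 in the sham pool, and 727.4 in the fluoxetine pool, against 422.0 in the vehicle pool. Each treated pool was above its own control pool, but only the fluoxetine value of 1417312_at passed the 1.5-fold size. With ECS the log2 ratios were 0.33 and 0.21, and with fluoxetine 0.43 and 0.79. The control spread was 0.19 at both, and the centred difference between sham and vehicle was 0.13 for 1448669_at and 0.36 for 1417312_at, so for 1417312_at the control pools differed by more than ECS did from sham. When fluoxetine was set against sham instead of vehicle after centring, 1417312_at had 0.31 and was no longer called, and ECS against vehicle had 0.67.
Sfrp1 and Sfrp2, frizzled-related proteins like Frzb, were not measurable. The 4 probe sets of Sfrp1 had signals from 1.7 to 42.4 over all pools. The probe set with the highest single signal, 1448395_at, had 25.7 in the ECS pool, against 27.3 in the sham pool, and 42.4 in the fluoxetine pool, against 33.4 in the vehicle pool. The single probe set of Sfrp2 had 13.9 in the ECS pool, against 11.3 in the sham pool, and 21.6 in the fluoxetine pool, against 14.5 in the vehicle pool. Wif1, whose protein binds Wnt ligands through a WIF domain, had 8.4 in the ECS pool, against 9.9 in the sham pool, and 17.7 in the fluoxetine pool, against 22.7 in the vehicle pool. No signal of these 3 genes reached 50, so a difference between pools was not detectable for them on these arrays, and their ratios are not given.

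The increase was led by Ccn4, a Ccn protein first found as a gene induced by Wnt1. Probe set 1448593_at had a signal of 54.3 in the ECS pool, against 16.7 in the sham pool, and 138.7 in the fluoxetine pool, against 20.9 in the vehicle pool. Probe set 1448594_at had 49.8 in the ECS pool, against 3.0 in the sham pool, and 164.3 in the fluoxetine pool, against 11.6 in the vehicle pool. In both, the fluoxetine signal was the highest, the ECS signal stood close to 50 and both control signals were far below it. Both probe sets passed the filter only through the treated pools, so they had to differ between pools. The paper lists 1448594_at, as Wisp1, among the genes most raised by ECS, of those it found significantly changed by both treatments. The log2 ratios were 1.70 and 4.05 with ECS and 2.73 and 3.82 with fluoxetine, beside a control spread of 0.38.
The size of these ratios rests on control signals too low to be measured. For 1448594_at the sham and vehicle pools alone differed by -1.45 on the centred log2 scale, and for 1448593_at by 0.18. With signals below 50 taken as 50, the fluoxetine ratios were 1.47 for 1448593_at and 1.72 for 1448594_at, both still past 1.5-fold, whereas the ECS ratios were 0.12 and 0.00. A pseudocount of 16 gave ECS ratios of 1.10 and 1.79 and fluoxetine ratios of 2.07 and 2.71. The ECS ratios were thus called only without the floor, and no rank among all probe sets is given for Ccn4. Among the probe sets with a mean signal of 50 to 100, 3.83% were higher with both treatments, from which nothing is read for probe sets that the filter kept through their high pools.

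**Figure D3:**
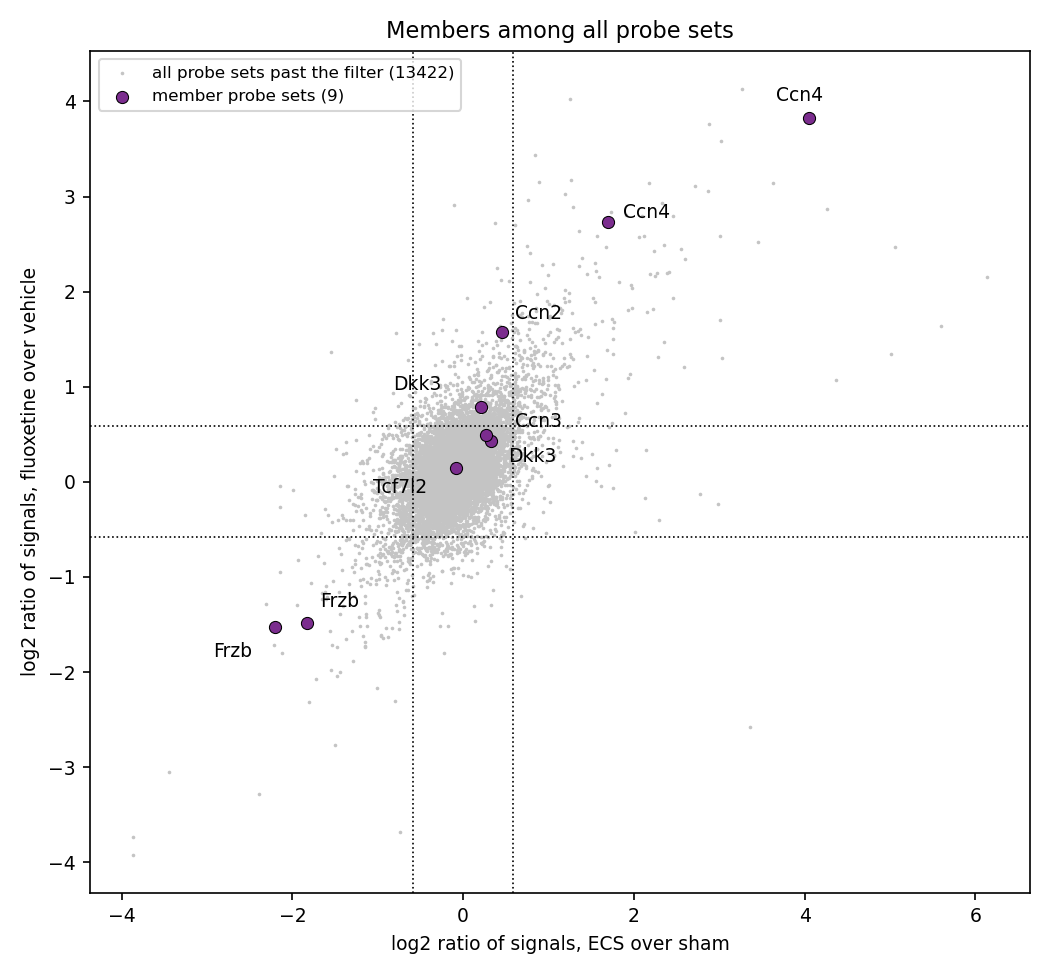
Log2 ratio with fluoxetine over vehicle against log2 ratio with ECS over sham for the 13422 measured probe sets (grey) and the 9 member probe sets (purple), with 1 array per pool. Dotted lines mark 1.5-fold. The 2 Frzb probe sets lie at the lower left and the 2 Ccn4 probe sets at the upper right, and Ccn2 is past 1.5-fold only on the fluoxetine axis.

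Ccn2 encodes connective tissue growth factor, a matrix protein that responds to TGFβ and to YAP. Its probe set had a signal of 51.0 in the ECS pool, against 37.2 in the sham pool, and 119.8 in the fluoxetine pool, against 40.1 in the vehicle pool. The fluoxetine pool stood apart from the other 3, and the filter was passed through it. The log2 ratio was 0.46 with ECS, short of the 1.5-fold size, and 1.58 with fluoxetine, beside a control spread of 0.36 and a sham-over-vehicle difference of 0.40 after centring. With signals below 50 taken as 50 the fluoxetine ratio was 1.26, still past 1.5-fold, and the ECS ratio 0.03. ECS against the vehicle array after centring gave 0.96, so that the ECS call for Ccn2 depended on the control array used. The difference between the treatments was not tested.
Ccn3, a Ccn protein known in neurons and able to bind Notch1, gave no call among its measured values. Probe set 1426852_x_at had 45.0 in the ECS pool, against 37.3 in the sham pool, and 96.6 in the fluoxetine pool, against 68.8 in the vehicle pool. Its log2 ratios were 0.27 with ECS and 0.49 with fluoxetine, beside a control spread of 0.36, and the control pools differed by -0.38. The ending x in its name marks a probe set that shares probes with similar sequences, so its signal may hold other transcripts. Its other probe set, 1426851_a_at, was below the filter, with 28.2 in the ECS pool, against 22.5 in the sham pool, and 68.9 in the fluoxetine pool, against 39.8 in the vehicle pool.
Ccn1, known as an immediate early gene and a TEAD target, lay just outside the filter. Probe set 1416039_x_at had a signal of 85.6 in the ECS pool, against 12.9 in the sham pool, and 64.2 in the fluoxetine pool, against 35.9 in the vehicle pool. Both treated signals were above 50 and both control signals below it, and the mean of 49.7 made it the brightest member to fail the filter. Its name also carries the ending x, so its signal may hold other transcripts. The control pools alone differed by -0.97 on the centred log2 scale. With signals below 50 taken as 50, the log2 ratios were 0.78 with ECS and 0.36 with fluoxetine. The other probe set, 1438133_a_at, had 43.0 in the ECS pool, against 14.3 in the sham pool, and 49.1 in the fluoxetine pool, against 25.5 in the vehicle pool, and no signal of it reached 50. In both probe sets each treated pool was higher than both control pools, but these values were not counted among the calls.
Because Ccn proteins are made by fibroblasts, vessels and glia as well as by neurons, markers of those cells were read in the same pools. Of 6 measured choroid plexus and meningeal markers, 2 passed the 1.5-fold size with ECS, 1 in each direction, and fluoxetine gave 2 higher and 1 lower. Col1a2, a fibrillar collagen chain, had log2 ratios of 1.02 (ECS) and 1.58 (fluoxetine), and Dcn, a matrix proteoglycan, had 0.22 and 1.32. Igf2, a growth factor, had -1.35 and -0.04, and Kl, the anti-ageing protein klotho, had -0.39 and -0.76, and these were the calls in the other direction. Ptgds had -0.35 and -0.55 and Lum had -0.44 and -0.32, without a call. After centring, Ptgds had -0.67 with fluoxetine, so that fluoxetine then gave 2 higher and 2 lower. Ttr, Folr1, Aqp1, Col1a1 and Slc6a13 were below the filter, and the summed signal of the list was 2547 in the ECS pool, against 3145 in the sham pool, and 3560 in the fluoxetine pool, against 4485 in the vehicle pool. Of 8 endothelial and pericyte markers, none was called with ECS and 2 were higher with fluoxetine, and Pecam1 and Abcc9 were below the filter. Vwf, 1 of the 2, passed the filter only through its fluoxetine pool. After centring, 1 of the 8 markers was higher with each treatment. Their summed signal was 1571 in the ECS pool, against 1484 in the sham pool, and 2529 in the fluoxetine pool, against 2032 in the vehicle pool. Of 10 astrocyte markers, ECS gave 1 higher and 1 lower and fluoxetine 2 higher. After centring, ECS gave 1 higher and none lower, and fluoxetine 2 higher. The summed signal was 14310 in the ECS pool, against 15086 in the sham pool, and 24069 in the fluoxetine pool, against 20638 in the vehicle pool. Gfap, a small part of that sum, had 601.5 in the ECS pool, against 127.4 in the sham pool. In the fluoxetine pool it had 1048.0, against 195.0 in the vehicle pool, and its log2 ratios were 2.24 and 2.43. Aqp4 had 0.34 and 0.86, and Slc1a3 had -0.64 and 0.05. Of 9 microglia markers, 2 were lower with ECS and 3 higher with fluoxetine, and Itgam was below the filter. After centring, none of the 9 was called with ECS and 2 were higher with fluoxetine. Their summed signal was 3617 in the ECS pool, against 3952 in the sham pool, and 7506 in the fluoxetine pool, against 5517 in the vehicle pool. The part of these markers in the Ccn values was not tested.

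Tcf7l2, the DNA-binding partner through which β-catenin acts on target genes, gave no call. Probe set 1429428_at had a signal of 53.4 in the ECS pool, against 56.6 in the sham pool, and 88.6 in the fluoxetine pool, against 80.4 in the vehicle pool. Its log2 ratios were -0.08 and 0.14, within the control spread of 0.36, and the order of the 4 signals followed the overall level of the arrays. Its other 3 probe sets were below 50 in every pool. Probe set 1429427_s_at had 17.5 in the ECS pool, against 21.6 in the sham pool, and 48.1 in the fluoxetine pool, against 44.6 in the vehicle pool. Probe sets 1425229_a_at and 1426639_a_at had signals from 1.5 to 18.8. Tcf7l2 is known for high expression in the thalamus, which lies close to the DG, and of the thalamus and habenula markers Gbx2, Rgs16, Slc17a6 and Lef1 were below the filter. The 5 measured ones summed to 2890 in the ECS pool, against 2201 in the sham pool, and 4451 in the fluoxetine pool, against 3475 in the vehicle pool. Most of each sum was Nrgn, with 1688.9 in the ECS pool and 1367.2 in the sham pool. With ECS, Calb2 (0.85) and Tac1 (0.88) were higher and Lhx9 (-0.89) lower. With fluoxetine, Calb2 (0.98) was higher and Lhx9 (-0.83) lower. Prkcd, the remaining measured marker, had -0.49 with ECS and -0.21 with fluoxetine, without a call. Calretinin, the protein of Calb2, is used in the paper as an immature granule cell marker. With most of it from Nrgn and another part from Calb2, the sum is not a measure of thalamic tissue, and the part of such tissue was not tested.

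The other genes of the pathways were taken from lists, each gene read by its brightest probe set. For part of the calls that depended on the control array, the value with exchanged control arrays is given, that is, ECS over vehicle and fluoxetine over sham after centring. A call printed without such a value is not thereby said to hold with the other control array. Over all 7935 measured genes, ECS gave 3.84% higher and 6.47% lower, fluoxetine gave 8.51% higher and 3.26% lower, and the median log2 ratios were -0.10 and 0.12.
Of 21 genes for Wnt ligands and their secretion, 7 were measured, of which ECS gave 1 higher, and fluoxetine 2 higher and 1 lower. The median log2 ratios were 0.01 with ECS and 0.14 with fluoxetine. Wnt10a, a canonical ligand, had a signal of 78.3 in the ECS pool, against 51.2 in the sham pool, and 144.4 in the fluoxetine pool, against 71.4 in the vehicle pool, which gave 0.61 and 1.02. Wnt7a, a ligand that promotes synapse formation, had 47.0 in the ECS pool, against 62.4 in the sham pool, and 37.4 in the fluoxetine pool, against 74.0 in the vehicle pool. Its log2 ratios were -0.41 and -0.98, and the fluoxetine value was -0.57 with signals below 50 taken as 50, short of the 1.5-fold size. Wnt7a passed the filter only through its control pools, so nothing is read from its place in the count of lower genes. Wls, the carrier that takes Wnt proteins to the cell surface, had 0.02 and 0.65. Its fluoxetine value was 0.52 after centring and 0.52 with exchanged control arrays, short of the 1.5-fold size. The other probe sets of Wls had 1.08 and 0.63 with ECS and 0.85 and 0.00 with fluoxetine.
Of 19 receptors and co-receptors on the array, 7 were measured, of which 1 was lower with ECS and 1 higher with fluoxetine. Fzd7, a Frizzled receptor of stem cells in several tissues, had 57.5 in the ECS pool, against 40.4 in the sham pool, and 161.8 in the fluoxetine pool, against 66.2 in the vehicle pool. Its log2 ratios were 0.51 and 1.29, or 0.62 and 1.16 after centring, both then past 1.5-fold. With exchanged control arrays the ECS value was 0.41, short of that size, and the fluoxetine value 1.37. Fzd8 had 26.5 in the ECS pool, against 50.8 in the sham pool, and 73.3 in the fluoxetine pool, against 51.7 in the vehicle pool. Its log2 ratios were -0.94 and 0.50, and the ECS value was -0.02 with the floor of 50 and -0.35 with exchanged control arrays.
Of 15 other secreted modulators on the array, 5 were measured, of which 1 was higher with ECS and 3 higher with fluoxetine, with medians of 0.15 and 0.80. Rspo2 encodes an R-spondin, which strengthens the response to Wnt by keeping receptors on the surface. It had 202.1 in the ECS pool, against 127.6 in the sham pool, and 651.8 in the fluoxetine pool, against 174.2 in the vehicle pool, so that all 4 signals were well above 50. The log2 ratios were 0.66 with ECS and 1.90 with fluoxetine, beside a control spread of 0.18 and a sham-over-vehicle difference of 0.05 after centring. Sfrp4, a frizzled-related protein, had 0.41 and 0.87, but its control pools differed by 0.62. Sostdc1, a Wnt and BMP antagonist, had 0.15 and 0.80, with control pools that differed by 0.54, and its other probe set had 0.44 and -0.10. With exchanged control arrays the contrast between the treatments turned round, since 3 genes were then higher with ECS and 1 with fluoxetine and the list medians were 0.80 and 0.12. Sfrp4 then had 1.14 with ECS and 0.12 with fluoxetine and Sostdc1 0.80 and 0.13, whereas Rspo2 had 0.83 and 1.73 and was called with both.

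**Figure D4:**
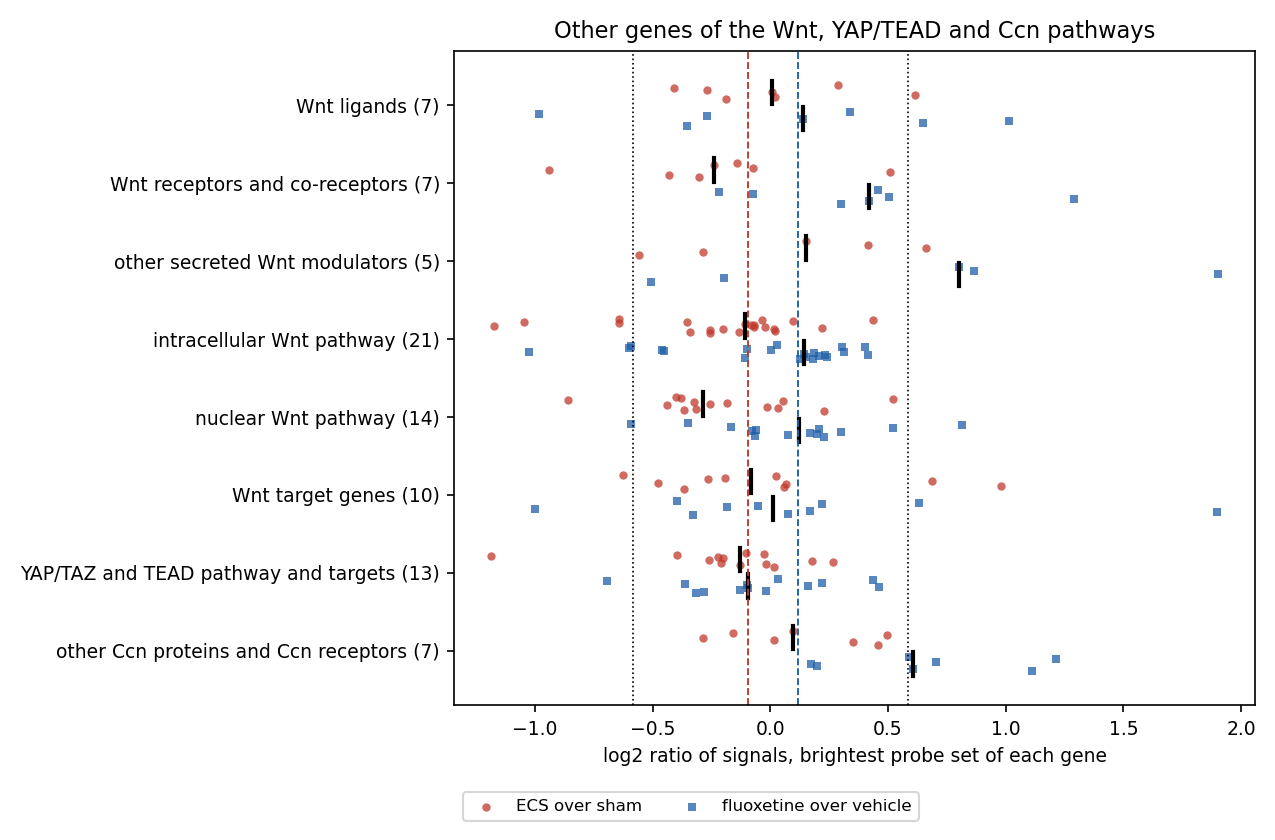
Log2 ratios of the measured genes of 8 pathway lists (1 probe set per gene, the brightest) for ECS over sham (circles) and fluoxetine over vehicle (squares), with 1 array per pool. Black ticks mark list medians, dashed lines the medians over all genes (-0.10 and 0.12) and dotted lines 1.5-fold. The squares of the other secreted Wnt modulators and of the Ccn receptors have medians of 0.80 and 0.61, of which the 0.80 was 0.12 with exchanged control arrays. The other lists have medians between -0.29 and 0.42.

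Inside the cell, 21 of 31 listed pathway genes were measured, of which 4 were lower with ECS and 3 lower with fluoxetine and none was higher. Dact1, a scaffold that binds Dishevelled, was lower with both. It had a signal of 74.8 in the ECS pool, against 168.7 in the sham pool, and 111.3 in the fluoxetine pool, against 226.2 in the vehicle pool, with log2 ratios of -1.17 and -1.02 beside a control spread of 0.25. Frat2 and Frat1, which hold Gsk3 away from its β-catenin complex, had ECS ratios of -1.05 and -0.64 and fluoxetine ratios of -0.10 and -0.46. With the floor of 50 the ECS ratio was -0.62 for Frat2 and -0.24 for Frat1. Vangl2, a planar polarity protein named here after its value was seen, had -0.64 with ECS, and -0.54 after centring. Its relative Vangl1 had 0.43 with ECS and -0.59 with fluoxetine. Gsk3a, a kinase of the complex that marks β-catenin for degradation, had -0.35 and -0.60. The list medians were -0.11 with ECS and 0.14 with fluoxetine, near those over all genes. After centring, 2 were lower with ECS and 3 with fluoxetine. With exchanged control arrays, 3 were lower with ECS and 1 with fluoxetine, as Gsk3a then had -0.39 and Vangl1 -0.37 with fluoxetine.
Of 14 measured nuclear genes, 1 was lower with ECS, and 1 was higher and 1 lower with fluoxetine. The 3 called were Groucho-type co-repressors, which silence Tcf targets when β-catenin is absent. Tle3 had log2 ratios of 0.52 and 0.82 (0.63 and 0.69 after centring, past 1.5-fold in both), Tle2 had -0.86 and -0.17, and Tle4 had -0.38 and -0.59. The ECS signal of Tle2 was 43.0, and with the floor of 50 its ECS ratio was -0.64. None of these calls held with exchanged control arrays, where Tle2 had -0.28 with ECS and -0.76 with fluoxetine, and the fluoxetine ratios were 0.56 for Tle3 and -0.43 for Tle4. Tle3 then had 0.77 with ECS, past the 1.5-fold size, so its increase moved from one treatment to the other. Lef1, another partner of β-catenin, was below the filter.
Of 10 measured Wnt target genes, each treatment gave 2 higher and 1 lower, with medians of -0.08 and 0.01. Cd44, a hyaluronan receptor, was higher with both, with 54.6 in the ECS pool, against 27.7 in the sham pool, and 150.6 in the fluoxetine pool, against 40.4 in the vehicle pool. Its log2 ratios of 0.98 and 1.90 were 0.13 and 1.59 with the floor of 50, so that the ECS value again rested on a sham signal below 50. Cd44 passed the filter only through its fluoxetine pool, so nothing is read from its place in the counts of higher genes. Myc, a growth-promoting transcription factor, had 0.69 and -0.18, and 0.44 with ECS under the floor. Tnfrsf19, a receptor of neural progenitors, had -0.63 and -0.40, and -0.52 with ECS after centring. Jun, an AP-1 subunit, had 1249.9 in the ECS pool, against 1738.1 in the sham pool, and 1139.7 in the fluoxetine pool, against 2278.7 in the vehicle pool, and its other probe set had log2 ratios of -0.60 and -0.98. Sox9, a glial and stem cell factor, had 0.03 and 0.63. The fluoxetine value of Sox9 was 0.51 after centring and 0.31 with exchanged control arrays, but its other probe set had 0.80. Lef1, Nkd1, Sp5, Rnf43, Lgr5 and Notum, which are targets of the pathway in many tissues, were below the filter.
The YAP and TEAD list, which holds regulators and targets shared with Ccn1 and Ccn2, gave 1 lower gene with ECS and 1 lower with fluoxetine among 13 measured, with medians of -0.13 and -0.09. Sav1, a scaffold of the Hippo kinases, had -1.19 and 0.22, but 0.01 and 0.39 in its other probe set. Tgfb2, a TGFβ ligand, had -0.39 and -0.70. The factors Tead1, Tead2, Tead3 and Tead4 were all below the filter.
Of 7 measured Ccn receptors, none was called with ECS and 5 were higher with fluoxetine, with medians of 0.10 and 0.61. Itga6, an integrin subunit that binds Ccn1 and Ccn2, had 259.5 in the ECS pool, against 188.8 in the sham pool, and 623.2 in the fluoxetine pool, against 288.2 in the vehicle pool, which gave 0.46 and 1.11. Notch1, a receptor that binds Ccn3, had 161.4 in the ECS pool, against 180.2 in the sham pool, and 455.5 in the fluoxetine pool, against 196.4 in the vehicle pool, which gave -0.16 and 1.21. The other probe set of Notch1 past the filter had 0.40 and 0.62, so the sign with ECS and the size with fluoxetine differed between them. The other probe set of Itga6 had 0.45 and 1.49. Lrp1, an endocytic receptor of Ccn2, had 0.50 and 0.70, and the integrin subunit Itgav had 0.35 and 0.61. Sdc4, a proteoglycan named here after its value was seen, had 0.10 and 0.59. After centring, 2 of the 5 remained higher with fluoxetine, namely Itga6 and Notch1, since Lrp1 then had 0.58, Itgav 0.48 and Sdc4 0.46. With ECS, Lrp1 then had 0.60 and passed the 1.5-fold size. With exchanged control arrays 3 were higher with fluoxetine and 1 with ECS, and Itgav then had 0.51 with fluoxetine.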

How the data were processed

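Pooled DG RNA was amplified with a 3′IVT kit and hybridized to 4 arrays. The deposited values are signal intensities, which the authors computed with MAS5, an Affymetrix algorithm that gives each probe set 1 value on a linear scale. The values carry no common scale, and the 4 arrays were used as deposited. The 64 control probe sets and probe sets with a mean signal below 50 were left out, as in the study's methods. A signal of 0 was taken as 0.1, which affected no measured probe set. Ratios, the control spread and counts at 1.5-fold were computed in Python 3.11.15 (pandas 2.3.3, numpy 2.4.6, scipy 1.17.1), and figures were made with matplotlib 3.10.9. The steps were tested on simulated arrays. With 1 array per group no test was run, and the number of arrays limits the precision. Detection calls, change calls and change p-values of the Affymetrix software were not used here.
Gene names came from the platform annotation. Of 22626 probe sets, 20380 had 1 gene, 691 several and 1555 none. Promoters came from RefSeq.
Named genes were all members, list genes called with both treatments or, otherwise, the up to 4 with the largest mean change among those called, and the 3 genes nearest to Frzb. The rule also gives those nearest to Ccn4, which are left out because its control signals were below 50. The members and lists were chosen with earlier results of these data known. Alternatives were median-centring, quantile normalization, a floor of 50, a pseudocount of 16, exchanged control arrays, other filters and fold sizes, and 1 value per gene.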

Additional observations from a re-analysis of the deposited data

Results flagged for a closer look

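Signals above 50 appeared in 2 member probe sets that the signal filter left out of the comparisons, in pools where the control array of the same comparison was below 50. Ccn1 probe set 1416039_x_at had 85.6 in the ECS pool, against 12.9 in the sham pool, and 64.2 in the fluoxetine pool, against 35.9 in the vehicle pool. Ccn3 probe set 1426851_a_at had 68.9 in the fluoxetine pool, against 39.8 in the vehicle pool. These differences were not tested.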

How the results depend on the processing

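No paired analysis was possible because each group is 1 array, and for the same reason no replicate could be left out. As reported, ECS gave 2 higher and 2 lower among the 9 measured member probe sets, and fluoxetine gave 4 higher and 2 lower. Median-centring, quantile normalization, a pseudocount of 16, a size of 2-fold and a filter of at least 1 array at 50 kept each of these 4 counts within 1.5 times. With a floor of 50, 0 were higher and 1 lower with ECS. The ECS signals of Ccn4 were 54.3 and 49.8, close to the floor, and that of Frzb probe set 1448424_at was below it. With exchanged control arrays, 4 were higher with ECS, the additions being Dkk3 probe set 1417312_at and Ccn2, while with fluoxetine Ccn3 was added and that Dkk3 probe set lost. At 1.2-fold, 5 were higher with ECS. Without the filter, over all 21 probe sets, ECS gave 5 higher and 6 lower and fluoxetine 10 higher. With a mean signal of at least 200, which left 3 probe sets, ECS gave 0 higher and 1 lower, and fluoxetine 1 higher and 1 lower. With 1 value for each of 6 genes, from the brightest probe set, ECS gave 1 higher and 1 lower, and fluoxetine 2 higher and 1 lower. With 1 value for each gene from the mean of its probe sets, ECS gave 1 higher and 1 lower, and fluoxetine 3 higher and 1 lower. Of the 18 member log2 ratios, all 18 stayed within the control spread of their reported value under median-centring and under quantile normalization, whereas 7 moved with the floor, 5 with the pseudocount and 12 with exchanged control arrays. No member ratio that was called changed sign. Ratios of probe sets near a signal of 50 are limited by the low signal, and the control spread covers handling as well as measurement.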
